A study of Mus musculus with 15 samples.

Results

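The genes described here are 60 genes of ribosome biogenesis and the nucleolus, out of 10653 genes measured in MPI cells, mouse macrophages that grow in culture. They were chosen by name, with no value in the rule: genes whose symbol starts with Nop, Utp, Rrp, Nol or Polr1, together with Noc2l, Noc3l, Noc4l, Ncl, Npm1, Fbl, Bop1, Pes1, Wdr12, Dkc1, Gar1, Nhp2, Ebna1bp2, Nip7, Rrs1, Imp3, Imp4, Bysl, Nob1 and Mybbp1a. MPI cells (Max Planck Institute cells) derive from the fetal liver of female C57BL6/J mice and depend on GM-CSF, a myeloid growth factor that was in the medium of every group. The study exposed them to elongated mineral particles of 2 amphibole minerals, riebeckite and tremolite, each in its fibrous, asbestiform habit and as cleavage fragments, which are broken crystals of the same mineral. Doses were set to equal particle surface area: riebeckite asbestos at 9 µg/cm², riebeckite cleavage fragments at 40 µg/cm², tremolite asbestos at 5 µg/cm² and tremolite cleavage fragments at 60 µg/cm². RNA was taken after 24 h, and each of these groups and the untreated group had 3 libraries, 15 in all. All groups are cultures of the same kind of cell, and the labels name no clone.

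Ribosomes are built in the nucleolus. RNA polymerase I transcribes the long precursor of most ribosomal RNA, box C/D and box H/ACA small nucleolar ribonucleoproteins (snoRNPs) methylate and pseudouridylate it, and large assemblies of further factors cut and fold it into the small (40S) and large (60S) subunits. In macrophages, as in other cells, the demand for these factors follows growth and protein synthesis.

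Expression was given as FPKM, fragments scaled by transcript length and by the size of the library. The sum over all genes ranged from 257329 to 273570 FPKM per library. Spearman's correlation across genes was 0.988 to 0.992 between libraries of the same group and 0.963 to 0.99 between groups, and no 2 libraries were identical. All 8 macrophage markers on a fixed list were measured, whereas 0 of 6 markers each of neutrophils, lymphocytes and fibroblasts and 0 of 6 of erythroid cells and hepatocytes were in the table. Of 6 epithelial and endothelial markers only Cdh1 was present. It is not stated if the 3 libraries per group were grown and treated apart. The p-values therefore rest on a library-to-library spread that may be technical.

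All 60 genes passed the filter for testing (at least 0.5 FPKM in at least 3 libraries), and their levels ran from 1.72 FPKM for Polr1e to 132 FPKM for Npm1. Most of them had lower mean levels with each of the particles, by modest amounts, and a few had higher ones. A gene is said to have fallen or risen where its adjusted p in limma was below 0.05, and log2 differences refer to log2(FPKM + 1), so those of weakly expressed genes come out too small. With riebeckite asbestos 25 of 60 genes fell (41.7%, against 24.3% of all 10616 genes tested) and 4 rose (against 21% of all genes tested). With riebeckite fragments 36 fell (60%, against 23.1%) and 3 rose (against 15.3%). With tremolite asbestos 26 fell (43.3%, against 13.9%) and 2 rose (against 10%). With tremolite fragments 32 fell (53.3%, against 15%) and 2 rose (against 12.5%). In each of the 4 comparisons the share that fell was above that of all genes tested and the share that rose was below it. The comparisons share the same 3 untreated libraries and are not independent of each other.

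The shifts were small for single genes. The median log2 difference over the 60 genes was −0.16 with riebeckite asbestos, −0.21 with riebeckite fragments, −0.14 with tremolite asbestos and −0.18 with tremolite fragments. Over all genes tested the medians were −0.02, −0.04, −0.03 and −0.02 in the same order. Differences were negative in 44, 54, 56 and 53 of the 60 genes, and in 5632, 6207, 6244 and 5912 of all 10616 genes tested. All 3 treated libraries lay below all 3 untreated libraries in 34 genes with riebeckite asbestos (29.6% of all genes tested did so), in 41 with riebeckite fragments (29.9%), in 34 with tremolite asbestos (23.9%) and in 41 with tremolite fragments (25.5%). In 25 genes this held for all 4 particles (13.3% of all genes tested). The 60 genes together held 0.415% to 0.432% of the summed FPKM of an untreated library and 0.351% to 0.389% of a treated one, without overlap. In bulk RNA, fewer cells with a given transcript and less of it per cell cannot be told apart.

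**Figure D1:**
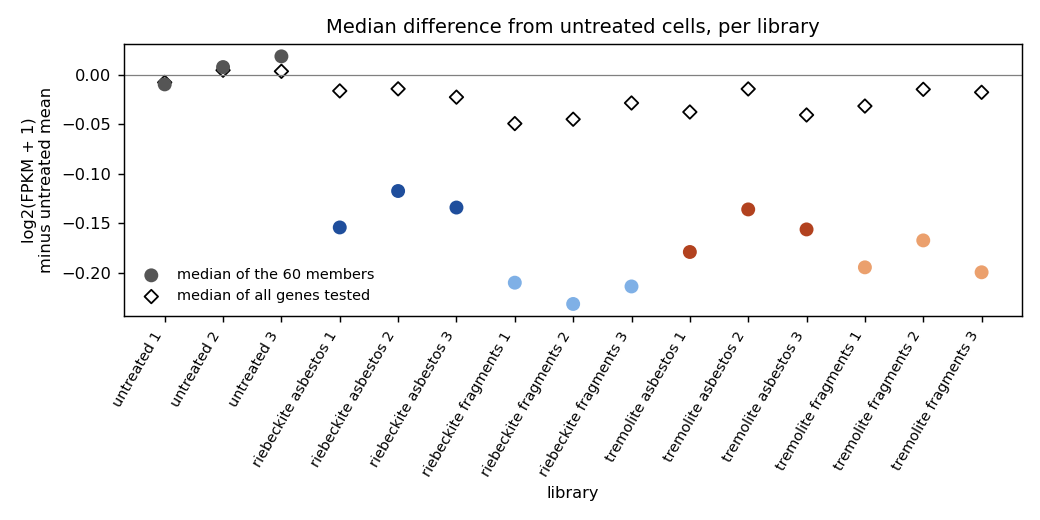
Median difference from the untreated mean, in log2(FPKM + 1), for each of the 15 libraries; filled points are the median of the 60 ribosome biogenesis genes and open diamonds the median of all genes tested. The 12 treated libraries lie between −0.2316 and −0.1175 for the 60 genes, and the 3 untreated libraries between −0.0098 and 0.0185.

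Taken gene by gene, 17 of the 60 fell in all 4 comparisons (8.7% of all genes tested did), 23 fell in 1 to 3 of them, and 20 fell in none. The 17 were Polr1a, Polr1b, Nop58, Fbl, Dkc1, Gar1, Bysl, Nop2, Nop16, Noc2l, Pes1, Ebna1bp2, Rrp15, Rrp1b, Ncl, Npm1 and Nolc1. Of these 17, 11 kept all 4 calls when any single library was left out and under each change of scaling, filter, pseudocount or model in which they were tested: Dkc1, Fbl, Gar1, Ncl, Noc2l, Nolc1, Nop16, Nop2, Nop58, Pes1 and Rrp1b. Nop58 and Rrp1b were not tested under the filter on a mean of at least 5 FPKM. When each gene was also replaced by the sum of its listed transcripts, 7 of the 17 kept every call. Of the 11, Gar1, Nolc1, Nop58 and Rrp1b did not. Utp14b and Nol4l rose in all 4 (7.47% of all genes tested did), Polr1c rose with both riebeckite particles, and Rrp7a rose with riebeckite asbestos. No call in any of the 4 comparisons was made for 16 genes. In the limma F test over the 5 groups 43 of the 60 genes differed (47.7% of all genes tested did).

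**Figure D2:**
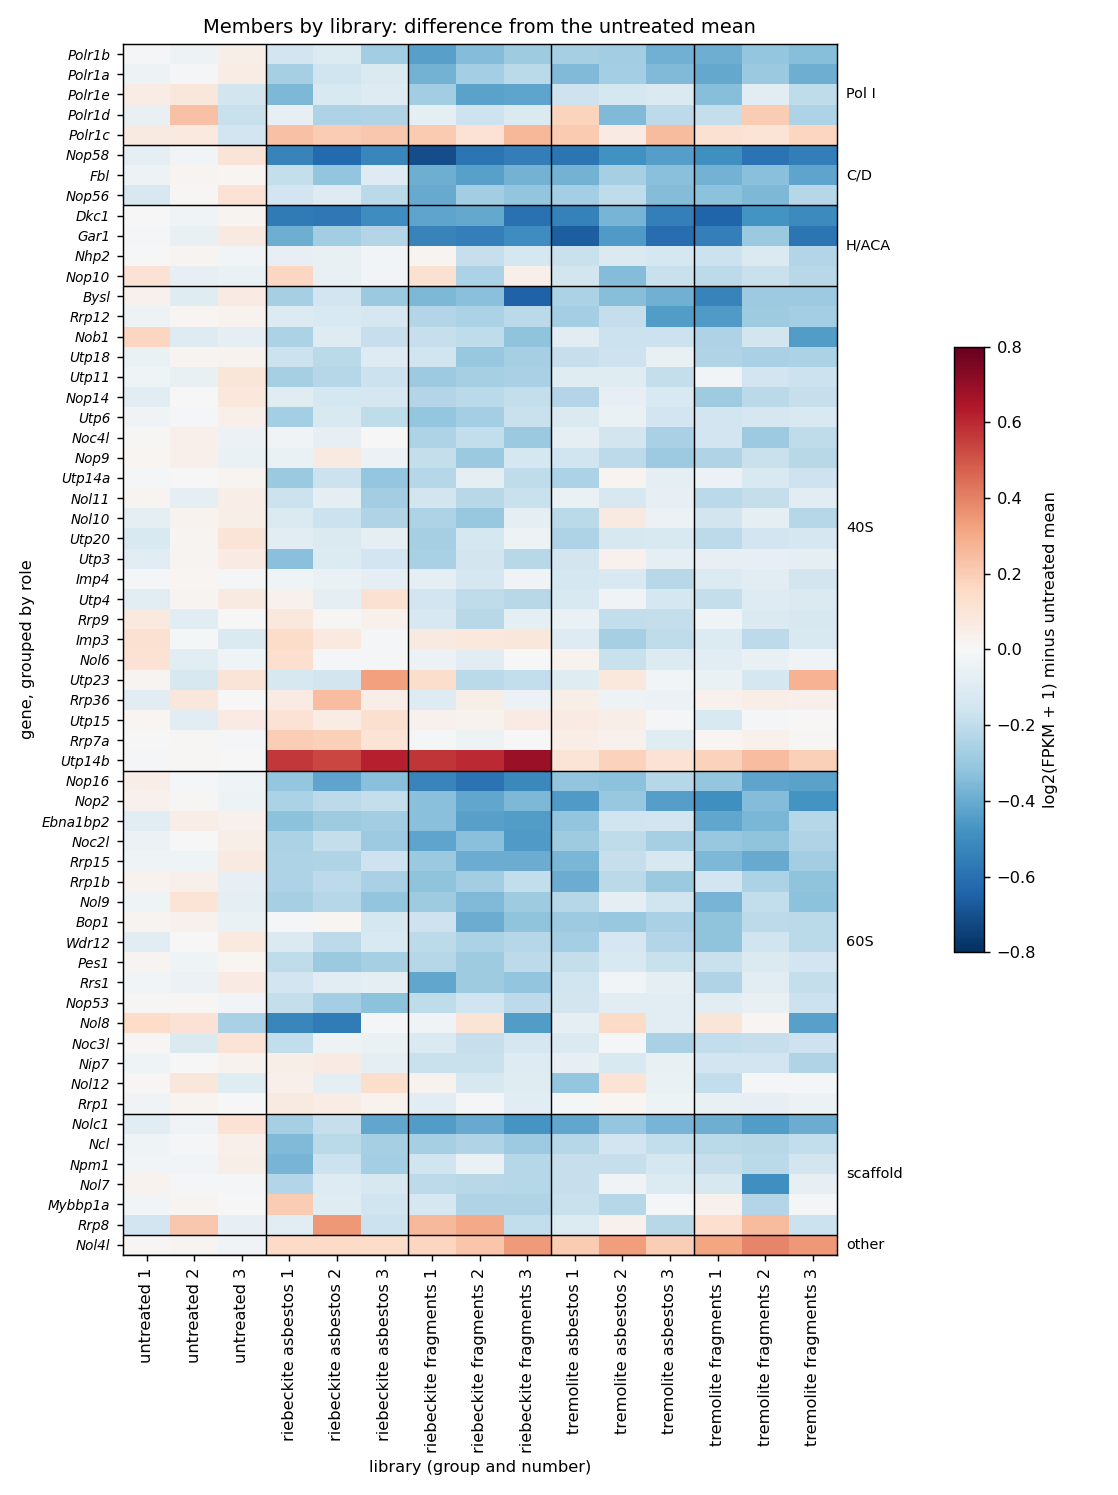
Each row is 1 of the 60 genes, grouped by role, and each column 1 of the 15 libraries; colour is log2(FPKM + 1) minus the mean of the untreated libraries, on a scale that ends at 0.8 either way. Blue (lower) fills most treated columns, deepest for Nop58, Dkc1 and Gar1, and Utp14b stands out in red in the riebeckite columns.

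RNA polymerase I was represented by 5 subunit genes. Polr1a and Polr1b, which encode the large catalytic subunits, fell with all 4 particles. Polr1b (chr2:129100995-129126594, GRCm38) measured 4.03, 3.92 and 4.22 FPKM in untreated cells, 3.55, 3.68 and 3.17 with riebeckite asbestos, 2.74, 2.97 and 3.15 with riebeckite fragments, 3.20, 3.16 and 2.88 with tremolite asbestos, and 2.86, 3.07 and 2.99 with tremolite fragments. No treated library reached the lowest untreated one. The log2 differences for Polr1b were −0.18 (SE 0.0578, adjusted p = 0.0218), −0.36 (0.000301), −0.31 (0.00169) and −0.35 (0.000568), in the order riebeckite asbestos, riebeckite fragments, tremolite asbestos and tremolite fragments. That order is kept from here on, and a further number in parentheses is the adjusted p of limma. Polr1a, at 4.25 ± 0.187 FPKM (SD, n = 3) in untreated cells, differed by −0.18, −0.29, −0.33 and −0.36, also without overlap. With riebeckite asbestos both calls depended on single libraries: without untreated library 3 the adjusted p was 0.0847 for Polr1a and 0.0795 for Polr1b, without riebeckite asbestos library 1 it was 0.0957 for Polr1a, and without riebeckite asbestos library 3 it was 0.0962 for Polr1b. With summed transcripts the adjusted p for riebeckite asbestos was 0.309 for Polr1b, and for Polr1a it was 0.433, 0.213 and 0.101 with riebeckite asbestos, tremolite asbestos and tremolite fragments.

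The smaller subunits went different ways. Polr1c, a subunit shared with RNA polymerase III, measured 10.3, 10.3 and 8.63 FPKM in untreated cells, 11.6, 11.3 and 11.4 with riebeckite asbestos, 11.3, 10.6 and 11.8 with riebeckite fragments, 11.4, 10.2 and 11.7 with tremolite asbestos, and 10.6, 10.5 and 11.1 with tremolite fragments. It rose by 0.22 with riebeckite asbestos (adjusted p = 0.0151) and by 0.20 with riebeckite fragments (0.031). Untreated library 3 was the low one, and without it the differences were 0.14 (adjusted p = 0.0698) and 0.12 (0.14). The Polr1c call with riebeckite fragments was also lost without riebeckite fragments library 1 (0.0761) or 3 (0.108). Polr1e fell with riebeckite fragments only, by 0.38 (from 2.68 ± 0.322 to 1.83 ± 0.168 FPKM, adjusted p = 0.00422), a call not made with its summed transcripts (0.215). Polr1d, the other subunit shared with RNA polymerase III, was called in no comparison. Its untreated libraries ran from 20.1 to 27 FPKM.

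The box C/D snoRNP carries out 2′-O-methylation of ribosomal RNA. Its core proteins Nop58 and Nop56 hold the guide RNA, and Fbl (fibrillarin) is the methyltransferase. Nop58 (chr1:59684971-59719044) measured 5.97, 6.25 and 6.92 FPKM in untreated cells, 4.09, 3.78 and 4.13 with riebeckite asbestos, 3.51, 3.91 and 4.02 with riebeckite fragments, 3.90, 4.27 and 4.44 with tremolite asbestos, and 4.24, 3.89 and 4.02 with tremolite fragments. Every treated library was below every untreated one. Nop58 fell by 0.56 (SE 0.0626, adjusted p = 9.05e-06), 0.62 (5.15e-06), 0.50 (6.89e-05) and 0.55 (2.49e-05) in the same order of particles. Its 5 listed transcripts, summed, gave −0.13 (adjusted p = 0.672), −0.44 (0.134), −0.44 (0.188) and −0.62 (0.0551), so the calls hold for the deposited gene value and not for the sum of its transcripts.

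Fbl (chr7:28169710-28179269) measured 15.7, 16.5 and 16.4 FPKM in untreated cells, 14.1, 12.8 and 15 with riebeckite asbestos, 12.1, 11.7 and 12.2 with riebeckite fragments, 12.2, 13.3 and 12.6 with tremolite asbestos, and 12.2, 12.6 and 11.8 with tremolite fragments. The riebeckite asbestos libraries came nearest to the untreated ones, still without overlap. The differences were −0.20 (SE 0.0513, adjusted p = 0.00568), −0.40 (4.14e-05), −0.33 (0.00048) and −0.38 (0.000105). Nop56 had 21.1, 23.3 and 25.2 FPKM in untreated cells and 19.8 to 21.5 with riebeckite asbestos, which overlapped, with a difference of −0.16 (adjusted p = 0.0564). It fell by 0.33 with riebeckite fragments, 0.27 with tremolite asbestos and 0.30 with tremolite fragments, each without overlap. With its listed transcripts summed, the adjusted p of Nop56 for these 3 was 0.0602, 0.0955 and 0.0897. Of 31-base stretches of the transcripts, 73.5% for Fbl and 33.2% for Nop56 also occurred in other annotated transcripts, mostly of pseudogenes, so reads of these genes could be split between copies and their levels are uncertain.

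The box H/ACA snoRNP converts uridine to pseudouridine. Dkc1 (dyskerin) is its catalytic subunit, and Gar1, Nhp2 and Nop10 are its partners. Dkc1 (chrX:75095854-75109777) measured 10, 9.81 and 10.2 FPKM in untreated cells, 6.43, 6.42 and 6.80 with riebeckite asbestos, 7.22, 7.29 and 6.27 with riebeckite fragments, 6.56, 7.5 and 6.53 with tremolite asbestos, and 6.05, 6.89 and 6.73 with tremolite fragments. The gap between the highest treated and the lowest untreated library exceeded the range within any group. Dkc1 fell by 0.54 (SE 0.0642, adjusted p = 1.47e-05), 0.48 (6.22e-05), 0.49 (0.00011) and 0.54 (3.04e-05), and it fell in every alternative run, the summed transcripts included.

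Gar1 (chr3:129824912-129831396), which binds the catalytic subunit, measured 10, 9.64 and 10.6 FPKM in untreated cells, 7.46, 8.13 and 8.44 with riebeckite asbestos, 6.65, 6.58 and 6.86 with riebeckite fragments, 6.00, 7.10 and 6.27 with tremolite asbestos, and 6.60, 8.03 and 6.39 with tremolite fragments. The groups did not overlap with the untreated one. Gar1 fell by 0.30 (adjusted p = 0.00623), 0.53 (0.00012), 0.57 (0.000122) and 0.47 (0.000439), but by its summed transcripts it was not called with any particle (adjusted p 0.325, 0.152, 0.0594 and 0.145). Nhp2, at 69.8 ± 0.987 FPKM in untreated cells, fell by 0.14 with tremolite asbestos (adjusted p = 0.0406) and by 0.17 with tremolite fragments (0.0142). Without any one of the 6 libraries compared the tremolite asbestos call of Nhp2 was lost (adjusted p 0.0523 to 0.121), and that with tremolite fragments was lost without untreated library 2 (0.0507) or tremolite fragments library 3 (0.0627). Nop10 was called with no particle.

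**Figure D3:**
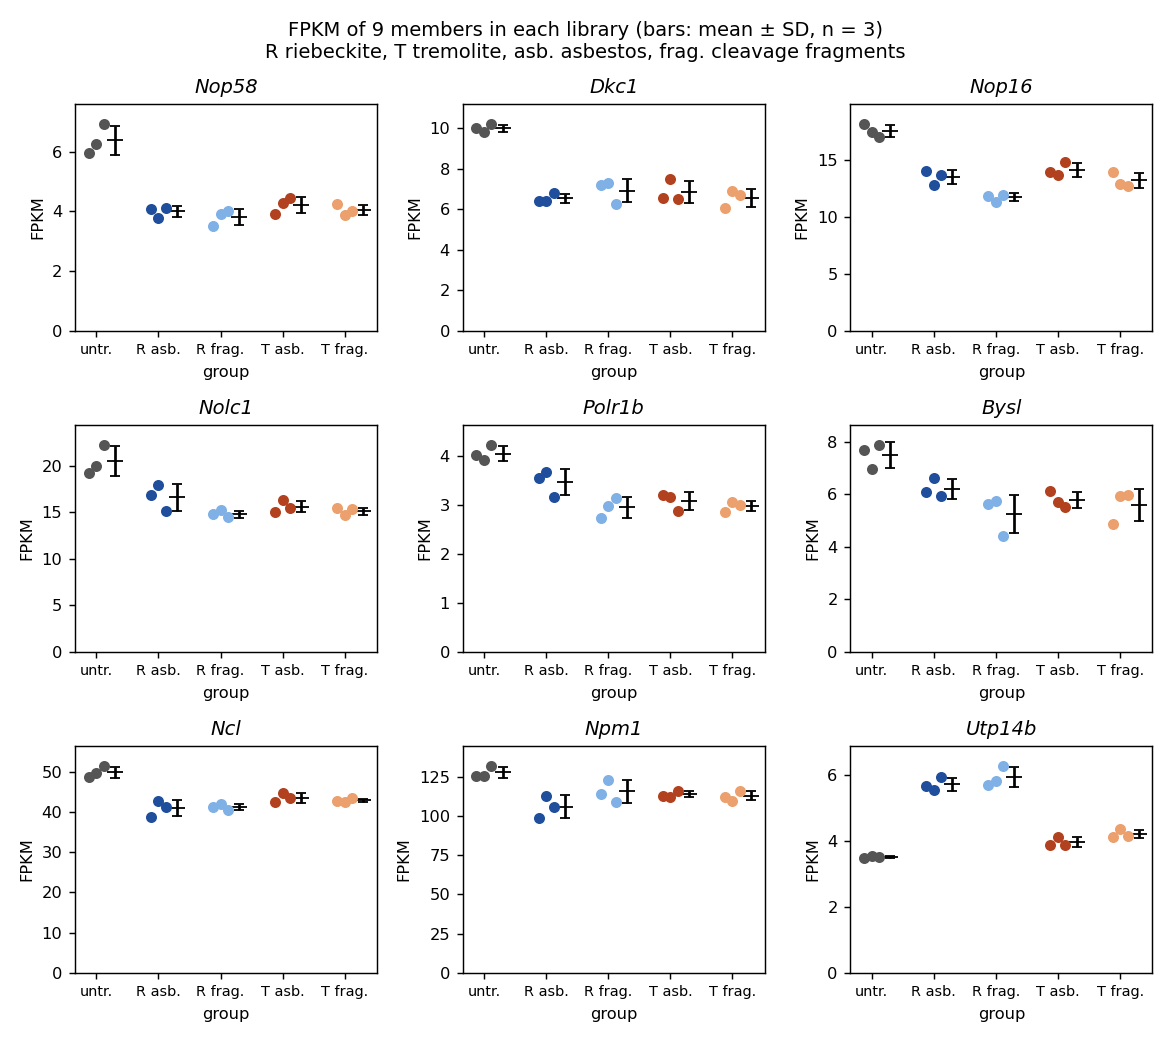
FPKM in each library for 9 genes of different roles (Nop58, Dkc1, Nop16, Nolc1, Polr1b, Bysl, Ncl, Npm1 and Utp14b); points are libraries, bars the mean ± SD of 3. In the first 8 panels the untreated libraries sit above all treated ones, and in the Utp14b panel the 6 riebeckite libraries, 5.54 to 6.27 FPKM, sit above the rest.

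The small subunit processome and 40S maturation factors were the largest group, with 24 genes. Lower calls numbered 7 with riebeckite asbestos, 12 with riebeckite fragments, 6 with tremolite asbestos and 9 with tremolite fragments. These shares were 29.2%, 50%, 25% and 37.5%, against 24.3%, 23.1%, 13.9% and 15% of all genes tested, so with riebeckite asbestos the group was near all genes. The medians were −0.07, −0.19, −0.12 and −0.14. Bysl (bystin), which acts late in 40S maturation, was the 1 gene of the 24 that fell in all 4. It measured 7.67, 6.94 and 7.86 FPKM in untreated cells, 6.07, 6.61 and 5.91 with riebeckite asbestos, 5.61, 5.73 and 4.42 with riebeckite fragments, 6.11, 5.70 and 5.51 with tremolite asbestos, and 4.86, 5.92 and 5.95 with tremolite fragments. The untreated libraries lay above the rest, and riebeckite fragments library 3 was the lowest. The differences were −0.24 (SE 0.0889, adjusted p = 0.0436), −0.45 (0.00143), −0.33 (0.0171) and −0.37 (0.00693). The Bysl call with riebeckite asbestos was lost without untreated library 1 (0.105) or 3 (0.13) or riebeckite asbestos library 1 (0.105) or 3 (0.121), and that with tremolite asbestos without untreated library 1 (0.053) or 3 (0.0643) or tremolite asbestos library 3 (0.0611).

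Rrp12, an export and maturation factor of the 40S precursor, fell with 3 particles. It measured 5.15, 5.40 and 5.46 FPKM in untreated cells, 4.86, 4.81 and 4.76 with riebeckite asbestos, 4.37, 4.31 and 4.46 with riebeckite fragments, 4.24, 4.56 and 3.64 with tremolite asbestos, and 3.62, 4.20 and 4.24 with tremolite fragments. All treated libraries lay below the untreated ones. Rrp12 differed by −0.12 with riebeckite asbestos (adjusted p = 0.141) and fell by 0.24 (0.0118), 0.30 (0.00416) and 0.34 (0.00165) with the other particles. Nop9, an RNA-binding protein of the early precursor, fell with the same 3 particles, by 0.21, 0.22 and 0.21, as did Noc4l, by 0.25, 0.16 and 0.22. For Noc4l the tremolite asbestos call was lost without untreated library 1 (0.093) or 2 (0.13) or tremolite asbestos library 2 (0.0702) or 3 (0.161).

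Among components of the early processome, Utp18 and Utp6, parts of the early U3-containing complexes, fell with both riebeckite particles and with tremolite fragments: Utp18 by 0.17, 0.24 and 0.25 and Utp6 by 0.20, 0.25 and 0.14. The call of Utp6 with tremolite fragments was lost without any one of the 6 libraries compared (adjusted p 0.0556 to 0.125). By its summed transcripts Utp18 was called lower with no particle, and with riebeckite fragments it was higher, by 0.12 (adjusted p = 0.882). Utp11 fell by 0.22 with riebeckite asbestos and 0.27 with riebeckite fragments. Nop14 fell by 0.21 with riebeckite fragments and 0.23 with tremolite fragments, and Utp14a fell by 0.26 with riebeckite asbestos.

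The other lower calls among the 24 rested on single libraries. Nob1, the endonuclease that makes the final cut of 18S ribosomal RNA, had 5.06, 4.01 and 4.12 FPKM in untreated cells, 3.73, 3.67 and 3.29 with riebeckite fragments and 3.54, 3.86 and 2.94 with tremolite fragments. Its first untreated library was high. Nob1 fell by 0.24 with riebeckite fragments (adjusted p = 0.0451) and by 0.28 with tremolite fragments (0.0286), and without untreated library 1 these were −0.15 (0.184) and −0.19 (0.121). The Nob1 call with riebeckite fragments was also lost without untreated library 3 or any one riebeckite fragments library (adjusted p 0.0514 to 0.143), and that with tremolite fragments without tremolite fragments library 1 (0.0531) or 3 (0.123). Nol11 fell by 0.18, 0.18 and 0.17 with all but tremolite asbestos, and Utp3 by 0.20 and 0.21 with riebeckite asbestos and fragments. Each call of Nol11 was lost without untreated library 1 or 3, and each of Utp3 without untreated library 2 or 3. Treated libraries whose omission ended a call were riebeckite asbestos 1 for both genes and 3 for Nol11, riebeckite fragments 2 for Nol11 and 1 for Utp3, and tremolite fragments 1 and 2 for Nol11 (adjusted p 0.0536 to 0.151 over all of these). Utp4 fell by 0.19 with riebeckite fragments, lost without untreated library 2 (0.0598) or 3 (0.0806) or riebeckite fragments library 3 (0.0561). With tremolite asbestos Imp3 fell by 0.19, lost without untreated library 1 (0.139) or 2 (0.0757) or tremolite asbestos library 2 (0.124) or 3 (0.0906), and Imp4 by 0.16, lost without tremolite asbestos library 3 (0.0533). No call was made for Nol6, Nol10, Rrp9, Rrp36, Utp15, Utp20 or Utp23.

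Of the 17 60S assembly factors, 9 fell with riebeckite asbestos, 13 with riebeckite fragments, 9 with tremolite asbestos and 12 with tremolite fragments. These shares were 52.9%, 76.5%, 52.9% and 70.6%, against 24.3%, 23.1%, 13.9% and 15% of all genes tested. None of the 17 rose, against 21%, 15.3%, 10% and 12.5% of all genes tested. The medians were −0.22, −0.27, −0.17 and −0.23. Nop16 (chr13:54584185-54590090), a nucleolar factor of early 60S particles, measured 18.1, 17.4 and 17 FPKM in untreated cells, 14, 12.8 and 13.7 with riebeckite asbestos, 11.8, 11.3 and 11.9 with riebeckite fragments, 13.9, 13.7 and 14.8 with tremolite asbestos, and 13.9, 12.9 and 12.7 with tremolite fragments. The groups did not overlap with the untreated one, and riebeckite fragments gave the lowest values. Nop16 fell by 0.35 (SE 0.0467, adjusted p = 3.99e-05), 0.55 (1.02e-06), 0.29 (0.00055) and 0.39 (3.82e-05).

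Nop2, a methyltransferase of 28S ribosomal RNA, measured 29, 28.5 and 27.5 FPKM in untreated cells, 23.6, 24.3 and 24.7 with riebeckite asbestos, 22.2, 21 and 21.8 with riebeckite fragments, 20.5, 22.8 and 20.6 with tremolite asbestos, and 19.8, 22.1 and 20.1 with tremolite fragments. Again no treated library reached the untreated range, and here tremolite gave the lowest values. Nop2 fell by 0.22 (SE 0.0485, adjusted p = 0.00253), 0.37 (4.85e-05), 0.40 (5.8e-05) and 0.44 (1.83e-05). Noc2l, a partner of early 60S particles, fell from 38.8 ± 1.32 FPKM to 32.6 ± 1.12, 29.1 ± 1.31, 32.4 ± 1 and 31.6 ± 0.948, and its untreated libraries, 37.5 to 40.1, lay above all others.

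Pes1, Bop1 and Wdr12 form the PeBoW complex, which is needed for the 5.8S and 28S ribosomal RNA ends. Pes1 had 40.3, 38.7 and 40.2 FPKM in untreated cells, 34.4, 32.3 and 32.9 with riebeckite asbestos, 33.8, 32.4 and 34.3 with riebeckite fragments, 34.7, 36.4 and 35 with tremolite asbestos, and 35, 36.7 and 35.6 with tremolite fragments. It fell without overlap by 0.25 (adjusted p = 5.59e-05), 0.24 (0.000111), 0.16 (0.00373) and 0.15 (0.00566), although 34.0% of its 31-base stretches occurred in other transcripts, so its level is uncertain. Bop1 had 16.4, 16.6 and 15.6 FPKM in untreated cells, 16, 16.4 and 14.6 with riebeckite asbestos, 14.3, 12 and 12.7 with riebeckite fragments, 13.1, 12.9 and 13.4 with tremolite asbestos, and 12.7, 13.9 and 13.8 with tremolite fragments. With riebeckite asbestos the Bop1 libraries overlapped the untreated ones (−0.05, adjusted p = 0.565), and with the others they did not (−0.29, −0.28 and −0.25, adjusted p 0.00151, 0.00364 and 0.00682). Wdr12 differed by −0.15 with riebeckite asbestos (adjusted p = 0.0556) and fell by 0.23, 0.21 and 0.23 with the others. The tremolite asbestos call of Wdr12 was lost without untreated library 2 (0.0529) or 3 (0.0804) or tremolite asbestos library 1 (0.0723) or 3 (0.0569). By its summed transcripts Wdr12 was called lower with no particle, and with riebeckite fragments it was higher, by 0.32 (adjusted p = 0.27).

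Ebna1bp2, Rrp15 and Rrp1b, which act in early 60S assembly, were the other 3 of the 17 that fell with every particle. Ebna1bp2 fell by 0.30, 0.41, 0.21 and 0.34, Rrp15 by 0.22, 0.36, 0.22 and 0.35, and Rrp1b by 0.24, 0.27, 0.30 and 0.24. For tremolite asbestos the call of Ebna1bp2 was lost without untreated library 2 (adjusted p = 0.0873) or 3 (0.0768) or tremolite asbestos library 1 (0.0957), and that of Rrp15 without untreated library 3 (0.0851) or tremolite asbestos library 1 (0.0857). The riebeckite asbestos call of Rrp15 was lost without untreated library 3 (0.0581). Rrp1b by its listed transcript was called with no particle (adjusted p 0.233 to 0.492).

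Nop53, which brings the exosome to the 60S precursor, fell by 0.26 with riebeckite asbestos and 0.19 with riebeckite fragments. Nol9, a polynucleotide kinase of ribosomal RNA processing, fell by 0.27, 0.31 and 0.30 with all but tremolite asbestos. By its summed transcripts Nol9 was called lower with no particle, and the riebeckite fragments difference was 0.79 (adjusted p = 0.362). Rrs1 fell by 0.34 with riebeckite fragments and 0.17 with tremolite fragments, and Nip7 by 0.15 and 0.18. The tremolite fragments call of Rrs1 was lost without untreated library 3 (0.103) or tremolite fragments library 1 (0.108) or 3 (0.0719), and the riebeckite fragments call of Nip7 without untreated library 3 (0.0614) or riebeckite fragments library 1 (0.0543) or 2 (0.0555). Noc3l, Nol8, Nol12 and Rrp1 were called with no particle.

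RNAs of the abundant nucleolar proteins Ncl, Nolc1 and Npm1 fell with every particle as well. Ncl (nucleolin, chr1:86344719-86359400), which binds ribosomal DNA and precursor RNA, measured 48.7, 49.6 and 51.4 FPKM in untreated cells, 38.8, 42.7 and 41.2 with riebeckite asbestos, 41.3, 42 and 40.6 with riebeckite fragments, 42.4, 44.8 and 43.4 with tremolite asbestos, and 42.8, 42.6 and 43.4 with tremolite fragments. No treated library came within the untreated range. Ncl fell by 0.28 (SE 0.0363, adjusted p = 3.51e-05), 0.27 (6.98e-05), 0.19 (0.00185) and 0.21 (0.000694), and kept these calls in every alternative run.

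Nolc1 (Nopp140, chr19:46075863-46085530), a chaperone of snoRNPs, measured 19.2, 20 and 22.2 FPKM in untreated cells, 16.8, 17.9 and 15.1 with riebeckite asbestos, 14.8, 15.2 and 14.5 with riebeckite fragments, 15, 16.3 and 15.5 with tremolite asbestos, and 15.4, 14.7 and 15.3 with tremolite fragments. The groups did not overlap with the untreated one. Nolc1 fell by 0.29 (SE 0.0613, adjusted p = 0.00189), 0.44 (8.82e-05), 0.37 (0.000748) and 0.41 (0.000243), and with summed transcripts the adjusted p for tremolite asbestos was 0.0625.

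Npm1 (nucleophosmin, chr11:33152287-33163206), the most abundant of the 60 transcripts per length, measured 126, 126 and 132 FPKM in untreated cells, 98.8, 113 and 106 with riebeckite asbestos, 114, 123 and 109 with riebeckite fragments, 113, 112 and 116 with tremolite asbestos, and 112, 110 and 116 with tremolite fragments. Its treated libraries were below the untreated ones throughout. Npm1 fell by 0.27 (SE 0.0506, adjusted p = 0.000684), 0.15 (0.0338), 0.17 (0.0254) and 0.18 (0.016). Apart from the first, these calls rested on single libraries and on the scaling of the libraries. With riebeckite fragments the Npm1 call was lost without untreated library 1 (0.0522), 2 (0.0555) or 3 (0.117) or riebeckite fragments library 1 (0.0856) or 3 (0.136). With tremolite asbestos it was lost without untreated library 3 (0.0945) or tremolite asbestos library 1 (0.0701) or 2 (0.0682), and with tremolite fragments without untreated library 3 (0.0641) or tremolite fragments library 2 (0.0603). Of its 31-base stretches 36.5% were shared with other transcripts, so its level is uncertain.

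The remaining nucleolar genes Mybbp1a, Rrp8 and Nol7 were called with no particle. Nol7 had 26.6, 25.9 and 25.8 FPKM in untreated cells and 18.3 to 25.6 in treated ones, so its libraries did not overlap, but the adjusted p ranged from 0.057 to 0.408. One tremolite fragments library, at 18.3 FPKM, stood below the rest.

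**Figure D4:**
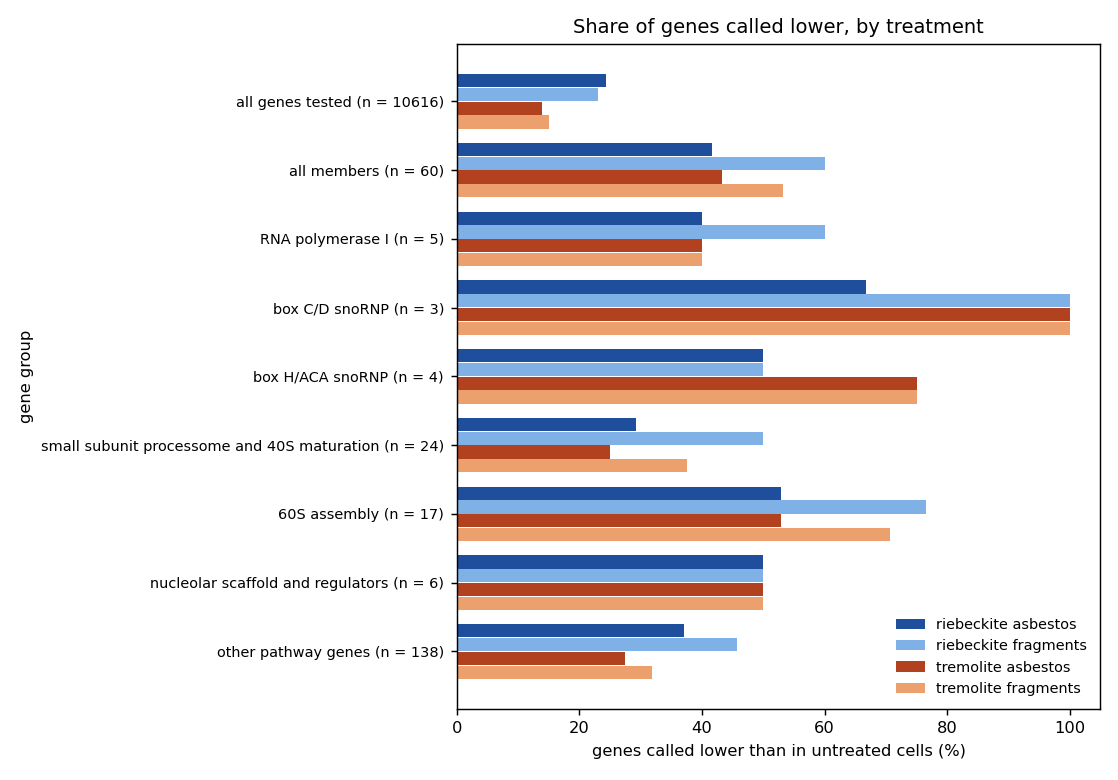
Percentage of genes that fell with each of the 4 particles against untreated cells, by role group of the 60 genes, for the other pathway genes and for all genes tested; bars start at 0. The 60S assembly bars, 52.9% to 76.5%, stand above those of the 40S group, 25% to 50%, and all genes tested reach 13.9% to 24.3%.

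Among the genes that rose, Utp14b moved most with the riebeckite particles and Nol4l more than Utp14b with the tremolite ones. This retrogene of the processome helicase partner Utp14a lies within the gene Acsl3 on the same strand. Utp14b measured 3.48, 3.54 and 3.51 FPKM in untreated cells, 5.68, 5.54 and 5.94 with riebeckite asbestos, 5.70, 5.81 and 6.27 with riebeckite fragments, 3.87, 4.13 and 3.89 with tremolite asbestos, and 4.13, 4.36 and 4.16 with tremolite fragments. The riebeckite libraries lay above all tremolite libraries, and these above the untreated ones. Utp14b rose by 0.57 (SE 0.0444, adjusted p = 2.76e-07), 0.62 (1.96e-07), 0.14 (0.0387) and 0.21 (0.00323), and without any one of the 6 libraries compared the tremolite asbestos call was lost (adjusted p 0.0567 to 0.124). Acsl3, a long-chain acyl-CoA synthetase, rose by 0.82, 0.68, 0.31 and 0.36 in the same comparisons. The ratio of Utp14b to Acsl3 stayed between 0.253 and 0.317 in all 15 libraries. Of 31-base stretches of the listed Utp14b transcript, 2.52% also occurred in annotated transcripts of Acsl3. Whether reads of Acsl3 entered the Utp14b value was not tested.

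Nol4l, which shares only its symbol with the nucleolar genes, measured 7.97, 8.04 and 7.76 FPKM in untreated cells, 8.90, 8.93 and 8.89 with riebeckite asbestos, 9.07, 9.42 and 10.3 with riebeckite fragments, 9.28, 10.2 and 9.24 with tremolite asbestos, and 10.1, 10.7 and 10.4 with tremolite fragments. All treated libraries were above the untreated ones. It rose by 0.15 (adjusted p = 0.0219), 0.25 (0.00134), 0.25 (0.00245) and 0.35 (0.000122), and the first call was lost without untreated library 3 (0.0708) or riebeckite asbestos library 1 (0.0512) or 2 (0.0522). Rrp7a, a 40S processing factor, measured 14, 14.1 and 13.9 FPKM in untreated cells and 16.2, 16.1 and 15.2 with riebeckite asbestos, above the 13 to 14.6 of the other treated libraries. It rose by 0.17 (SE 0.0415, adjusted p = 0.00559) with riebeckite asbestos only; after rescaling on nuclear genes alone the difference was 0.11 (0.0574).

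The scaling of the libraries bore on the counts. After TMM rescaling, which assumes that most genes keep their level, 24, 32, 21 and 31 of the 60 genes fell with riebeckite asbestos, riebeckite fragments, tremolite asbestos and tremolite fragments, against 22.9%, 18.2%, 10.3% and 12.8% of all genes tested. The share of all genes that rose was then 22.5%, 18.7%, 12.5% and 14.3%. The calls against untreated cells lost after TMM rescaling were Bysl with riebeckite asbestos, and Npm1, Nob1, Nol11 and Nip7 with riebeckite fragments. With tremolite asbestos they were Npm1, Nhp2, Ebna1bp2, Imp3 and Noc4l, and with tremolite fragments Nol11. Quantile normalization lost Nob1 and Nol11 with riebeckite fragments, Npm1 and Noc4l with tremolite asbestos, and Npm1, Nol11 and Utp6 with tremolite fragments. With each gene replaced by the sum of its listed transcripts, 16, 26, 15 and 22 fell, against 17.6%, 16.7%, 9.18% and 10.5%. Of the 17 genes that fell with every particle, Dkc1, Fbl, Ncl, Noc2l, Nop16, Nop2 and Pes1 did so by this measure too.

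Proliferating cells make more ribosomes, and a list of 13 proliferation genes was set beside these results. Of the 13, 6 fell and 1 rose with riebeckite asbestos, 6 fell with riebeckite fragments, 9 with tremolite asbestos and 10 with tremolite fragments. The shares that fell were 46.2%, 46.2%, 69.2% and 76.9%, against 24.3%, 23.1%, 13.9% and 15% of all genes tested, and the 1 that rose was 7.69%, against 21%. Mcm4 to Mcm7, which encode helicase subunits of DNA replication, and Rrm2 and Top2a fell with all 4, and Mki67 rose by 0.26 with riebeckite asbestos. The summed level of the 13 was 387 to 411 FPKM in untreated libraries, 376 to 382 with riebeckite asbestos, 366 to 377 with riebeckite fragments, 327 to 348 with tremolite asbestos and 346 to 355 with tremolite fragments. Its part in the lower level of the ribosome biogenesis genes was not tested. The summed level of the 8 macrophage markers was 4810 to 5290 FPKM in untreated libraries, 5760 to 6020 with riebeckite asbestos, 6050 to 6540 with riebeckite fragments, 4950 to 5650 with tremolite asbestos and 4840 to 5220 with tremolite fragments. It was thus above every untreated library with both riebeckite particles and overlapped the untreated range with both tremolite particles, and its part in the results was not tested. Cdh1 was 52.4 to 53.8 FPKM in untreated and 24.3 to 39.6 in treated libraries.

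Whether fibres and fragments of the same mineral differed was asked within each mineral. For riebeckite, 11 of the 60 genes were higher with asbestos than with fragments (6.71% of all genes tested were) and 0 were lower (against 3.85%). The 11 were Rrs1, Rrp7a, Bop1, Nop16, Rrp1, Noc4l, Noc2l, Fbl, Utp4, Nop9 and Nip7, with differences of 0.12 (Rrp1) to 0.25 (Bop1) and adjusted p of 0.0137 (Rrs1) to 0.0359 (Nip7). All 3 asbestos libraries lay above all 3 fragment libraries in 23 of the 60 genes, the 11 included (18% of all genes tested did so). Rrs1, a factor that brings the 5S particle to the 60S precursor, measured 35, 36.8 and 37.1 FPKM with asbestos and 29.1, 31.9 and 31.1 with fragments, against 38.4, 37.8 and 41 untreated. Its asbestos libraries lay between the other groups. The median over the 60 genes was 0.08, against 0.02 over all genes tested. Differences were positive in 48 of the 60, and in 6066 of all 10616 genes tested.

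These riebeckite calls depended on single libraries and on the scaling. Without riebeckite asbestos library 1, 2 or 3 there were 1, 5 and 9 higher calls, and without riebeckite fragments library 1, 2 or 3 there were 4, 4 and 5. With only the riebeckite libraries fitted the count was 0, after TMM rescaling 7, after quantile normalization 4 and with summed transcripts 6. For tremolite, limma called 0 of the 60 genes in either direction (0.942% of all genes tested were called). An unadjusted p below 0.05 was found for 4 of the 60, and for 1162 of all 10616 genes tested.

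**Figure D5:**
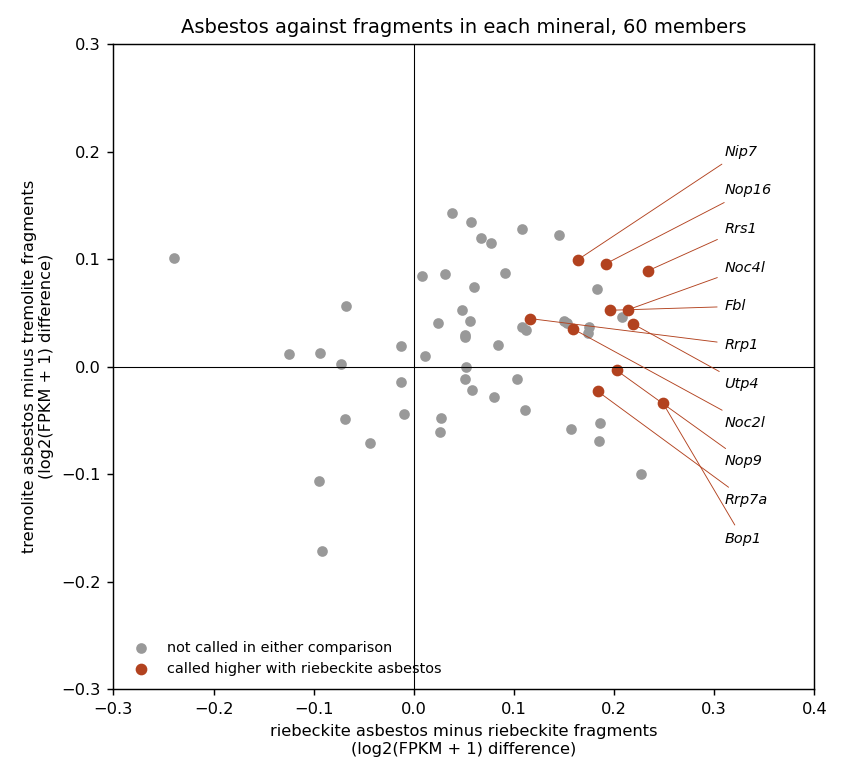
Asbestos minus fragments in log2(FPKM + 1) for each of the 60 genes, riebeckite on the horizontal and tremolite on the vertical axis; red points are the 11 genes called for riebeckite, and no gene was called for tremolite. Points lie mostly right of 0 (48 of 60), and the red ones range from 0.12 to 0.25 on the horizontal axis.

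The asbestos-minus-fragments difference was compared between the minerals directly in limma. This called 0 of the 60 genes (3.93% of all genes tested were called). An unadjusted p below 0.05 was found for 7 of the 60, and for 1951 of all 10616 genes tested. The smallest adjusted p were those of Rrp7a (0.21, adjusted p = 0.0759) and Bop1 (0.28, adjusted p = 0.0875). Without riebeckite fragments library 1 there was 1 call. Across the 60 genes, which are not independent replicates, the asbestos-minus-fragments differences of both minerals had Pearson's r = 0.135 and Spearman's rho = 0.144. In 33 genes both of these differences were positive and in 6 both were negative.

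The minerals were also compared within each habit. Between the asbestos forms, 8 genes were higher with riebeckite (15.5% of all genes tested were) and 1 was lower (against 11%). The share of the 60 genes was thus near or below that of all genes tested. The 8 were Utp14b (0.44, adjusted p = 1.51e-05), Imp3, Rrp7a, Bop1, Nop9, Nop2, Gar1 and Rrp9, and the lower one was Nop53 (−0.16, 0.0114). Imp3, a U3 snoRNP protein, measured 30, 28.6 and 26.9 FPKM with riebeckite asbestos and 25.1, 22.3 and 23.3 with tremolite asbestos, against 29.5, 26.8 and 24.9 untreated. The untreated libraries overlapped both. Without tremolite asbestos library 3 there were 4 higher calls. On omission of single libraries, Gar1 and Rrp9 each lost the call 4 times, Nop2 3 times and Nop9 2 times. The other higher calls were kept on each omission. Rrp9 also lost the call after TMM rescaling, and Nop2 and Rrp9 after rescaling on nuclear genes. Lower calls numbered 3 without riebeckite asbestos library 2, and 2 without riebeckite asbestos library 1 or tremolite asbestos library 1. They numbered 3 after TMM rescaling and 5 after quantile normalization.

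Between the fragments, 2 genes were higher with riebeckite (5.31% of all genes tested were) and 1 was lower (against 6.01%). The higher ones were Utp14b (0.41, adjusted p = 9.76e-05) and Imp3 (0.23, 0.0285), and the lower one was Nop16 (−0.16, 0.0454). The calls of Imp3 and Nop16 were each lost without any one of the 6 libraries compared (adjusted p 0.051 to 0.104 for Imp3 and 0.0634 to 0.161 for Nop16). The count of lower genes was 5 after rescaling on nuclear genes (9.37% of all genes tested were then lower) and 0 after TMM rescaling or quantile normalization. Ncl, Npm1, Fbl, Nop56, Nop58, Dkc1, Polr1a, Polr1b, Pes1, Nolc1 and Nob1 were called in neither comparison of the minerals.

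Further genes of the same pathway, taken from a list of other RNA polymerase I, snoRNP, processome, 60S and nuclease factors, were measured for 138 of the listed symbols. Of these, 51 fell and 7 rose with riebeckite asbestos, 63 fell with riebeckite fragments, 38 with tremolite asbestos and 44 with tremolite fragments, and none rose with the last 3. The share that rose was 5.07% with riebeckite asbestos and 0 with the others, against 21%, 15.3%, 10% and 12.5% of all genes tested. The shares that fell, 37%, 45.7%, 27.5% and 31.9%, were between those of the 60 genes and of all genes tested. The genes of this list named here and in the next paragraph were picked by smallest p. Their calls were not rerun under the alternatives or without single libraries. Sdad1, a 60S assembly factor, went from 10.7 FPKM on average in untreated cells to 6.46, 6.39, 7.83 and 7.72, a fall of 0.66, 0.67, 0.41 and 0.43. The helicase Ddx21 went from 56.3 to 48.2, 43.6, 47.1 and 45.9 FPKM. Snu13, a further core protein of box C/D snoRNPs, fell by 0.24, 0.30, 0.32 and 0.29, and the 60S methyltransferase Ftsj3 by 0.18, 0.30, 0.22 and 0.26.

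Pop4, a subunit of RNase P and MRP, fell by 0.24 with riebeckite asbestos and 0.27 with riebeckite fragments. Taf1b, part of the RNA polymerase I initiation factor SL1, fell from 4.5 to 2.85 FPKM with riebeckite asbestos, by 0.52, and Riok3 fell by 0.23. Those that rose with riebeckite asbestos included Gnl3l (0.32), Polr2e (0.31), Bud23 (0.20) and Pak1ip1 (0.19). Polr2e encodes a subunit shared by all 3 nuclear RNA polymerases.

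The 60 genes lie on 18 chromosomes with at most 7 on any, and share few features that their names do not carry. All 60 identifiers were found in the GENCODE M21 annotation. Small nucleolar RNA genes lie on the same strand inside 5 of them (8.33%, against 1.88% of the measured genes): 5 in Nop56, 4 in Nop58, 3 in Ncl and 1 each in Dkc1 and Nop53. Nop58, Dkc1 and Ncl fell with every particle, and Nop56 and Nop53 fell with some. A coding gene on the opposite strand overlaps 17 of the 60. Of 108 listed transcripts, 32 genes had 1 and 28 had more, and the deposited gene value often differed from the transcripts' sum. With 1 transcript, its value equalled the gene value in all libraries (relative tolerance 0.001) for 10 of the 32 genes. With more, the transcripts summed to above the gene value in all libraries for 25 of the 28.

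Promoter sequence from RefSeq (GRCm38.p6), 250 bases before to 50 after the start, was matched by symbol for 50 of the 60 genes. The motif CACGTG, the E-box bound by Myc and its relatives, reads the same on both strands. It occurred in the 300 bases of 10 of the 50 (20%), against 12.5% of 8391 measured genes and 8.09% of all 27025 genes in the table. Among the genes that fell with every particle it was in 2 of 15, among those that fell with 1 to 3 in 4 of 17, and among those that fell with none in 4 of 18. The median GC content was 58.5% over the promoters matched to the 50 genes and 60.7% over those of measured genes. To set genes that fell with a motif beside genes that fell without one, the 120 bases before the start are given for Nop2 (chr6:125131763-125131882, plus strand), Utp18 (chr11:93885767-93885886, minus strand) and Nol11 (chr11:107189382-107189501, minus strand), in which capitals mark CACGTG, and for Dkc1 (chrX:75095734-75095853, plus strand) and Ncl (chr1:86359456-86359575, minus strand), which lack it there. Each reads 5′ to 3′ on the gene's strand.
Nop2: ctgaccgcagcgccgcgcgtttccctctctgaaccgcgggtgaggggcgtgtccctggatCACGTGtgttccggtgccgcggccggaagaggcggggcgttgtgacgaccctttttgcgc
Utp18: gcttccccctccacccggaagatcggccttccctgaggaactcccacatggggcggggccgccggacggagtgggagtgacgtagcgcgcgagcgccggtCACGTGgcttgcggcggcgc
Nol11: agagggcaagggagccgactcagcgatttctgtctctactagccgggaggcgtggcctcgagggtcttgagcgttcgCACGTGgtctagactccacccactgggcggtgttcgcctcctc
Dkc1: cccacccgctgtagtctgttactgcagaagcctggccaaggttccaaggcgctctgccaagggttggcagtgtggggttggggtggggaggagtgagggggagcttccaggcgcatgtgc
Ncl: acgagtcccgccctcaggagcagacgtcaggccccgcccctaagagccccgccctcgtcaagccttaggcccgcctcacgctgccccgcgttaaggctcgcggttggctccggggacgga
The motif begins 60 bases before the start in Nop2, 20 in Utp18 and 43 in Nol11. Nop2 fell with every particle, Utp18 and Nol11 with both riebeckite particles and tremolite fragments, and Dkc1 and Ncl, without CACGTG in the 300 bases, with every particle. Rrp7a and Utp14b, which rose with riebeckite asbestos, also hold the motif. The Utp14b window (chr1:78658190-78658489) lies inside the gene as the deposited data place it (chr1:78658038-78671512), and inside Acsl3. A match is only a run of letters in this window.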

How the data were processed

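RNA of 15 libraries of MPI cells was enriched with oligo(dT) beads and made into libraries with dUTP second strands, per the labels' protocols. The submitters' processing notes name cutadapt, HISAT2, StringTie and the GRCm38 build. Versions, roles, settings and annotation release: not given in the sources used here. From these the authors deposited FPKM for 10653 genes, all protein-coding, and for their transcripts; the unit was read from the values. FPKM are relative within a library, and a gene below about 0.5 FPKM in every group was not analysed here. Read counts were not used here, so depth is unknown and no counting error can be given.

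Groups were taken from the labels. The 60 genes, their role groups and the other lists were chosen with earlier results of these data known. The test was limma 3.58.1 (R 4.3.3; lmFit, contrasts.fit, eBayes with trend) on log2(FPKM + 1) of the 10616 genes that reached 0.5 FPKM in 3 or more libraries, in 1 fit of 15 libraries by group, with 10 residual degrees of freedom. Benjamini-Hochberg adjustment ran over all genes, separately for each comparison, at 0.05. Lists are described by counts and medians, with no test. The fit was tested on simulated data.

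Genes were named by rule: up to 10 per comparison and direction by smallest p, and 12 core genes throughout; the remaining genes are named by their calls, seen first. Of other pathway genes, up to 4 per direction and comparison were named. The labels do not say that replicate numbers pair the libraries. Alternatives were TMM rescaling (30% of M and 5% of A trimmed), quantile normalization, rescaling without mitochondrial genes, a pseudocount of 0.1, no filter, a mean of at least 5 FPKM, a replicate block, only the groups compared, and omission of each library. Sums of listed transcripts were added after seeing the data. Sequence features used GENCODE M21 and RefSeq tables with Python 3.11.15 and pandas 2.3.3; figures used matplotlib 3.10.9.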

Additional observations from a re-analysis of the deposited data

How the results depend on the processing

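Depth is unknown, so what it limits could not be stated. The 3 libraries per group limit every call, and a difference that missed the threshold is not shown to be absent. Over the 202 results of named genes, 153 of them called, 2976 alternative values were computed; 2626 kept the direction and the side of the threshold, 295 lost the threshold, 17 passed it and 38 changed sign, 3 of these among called results. The alternatives counted for a lower call were those in which its gene was tested. Summed transcripts apart, 19 of 25 lower calls with riebeckite asbestos and 30 of 36 with riebeckite fragments were kept in all. With tremolite asbestos 17 of 26 were kept, and with tremolite fragments 26 of 32. With summed transcripts included, these counts were 14, 25, 11 and 18 in the same order of particles. The 25 still hold Wdr12, Nol9 and Utp18, 3 calls that changed sign with summed transcripts and so were not kept. At a mean of at least 5 FPKM, 12 of the 60 genes were not tested. The cause of the changes given here was not tested.

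Lower counts against untreated cells changed by over 1.5 times only with summed transcripts, to 16 (riebeckite asbestos) and 15 (tremolite asbestos). Higher counts became 2 with riebeckite asbestos and 1 with tremolite asbestos after rescaling on nuclear genes; 1 with each tremolite particle at a mean of at least 5 FPKM, where fewer genes are tested; and 1 with tremolite asbestos with only the groups compared or summed transcripts. For riebeckite asbestos over fragments the higher count was 7 (TMM), 4 (quantile), 0 (only the groups compared) and 6 (summed transcripts). For riebeckite over tremolite asbestos the lower count was 3 (TMM), 5 (quantile) and 0 (only the groups compared), and the higher count 4 (only the groups compared) and 5 (summed transcripts). For riebeckite over tremolite fragments the lower count was 0 (TMM, quantile, only the groups compared and summed transcripts) and 5 (nuclear genes), and the higher count 1 at a mean of at least 5 FPKM.

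Whether replicate numbers pair the libraries could not be settled. Over 30 same-numbered pairs the correlation of deviations ran from −0.0613 to 0.172, with 3 above 0.1, and 8 of 15 libraries were closest to their own number. With the replicate number as a block the lower counts against untreated cells were 26, 39, 29 and 34, and the lower count was 2 both for riebeckite over tremolite asbestos and for riebeckite over tremolite fragments.

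On omission of single libraries the counts ranged over 2 to 4 higher and 20 to 26 lower (riebeckite asbestos), 2 to 3 and 30 to 35 (riebeckite fragments), 1 to 2 and 20 to 25 (tremolite asbestos), 2 and 28 to 31 (tremolite fragments), 1 to 9 higher (riebeckite asbestos over fragments), 4 to 8 higher and 1 to 3 lower (between asbestos forms), 1 to 2 higher and 0 to 1 lower (between fragments), 0 to 1 for the difference of the habit effects, and 36 to 43 for the F test.

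With summed transcripts 3 called results changed sign, none passing the threshold: riebeckite fragments against untreated for Wdr12 (0.32), Nol9 (0.79) and Utp18 (0.12). The other sign changes were of differences not called. With summed transcripts these were Nob1 (−0.0189 for riebeckite asbestos over fragments, −0.0977 for tremolite asbestos over fragments, 0.0081 between asbestos forms and −0.0706 between fragments), Nop56 (−0.0029 for tremolite asbestos over fragments), Nop58 (0.31 between asbestos forms and 0.17 between fragments), Nolc1 (−0.0606 between asbestos forms) and Polr1a (−0.20 between fragments). Between fragments, Polr1b was 0.0059 (TMM) and 0.0101 (quantile), Fbl 6e-04 (quantile) and Npm1 −0.0215 (quantile) and −0.0105 (nuclear genes). Npm1 for tremolite asbestos over fragments was −0.0185 (quantile) and −0.0019 (nuclear genes). On omission of single libraries the difference of riebeckite asbestos over fragments ran from −0.0442 to 0.0232 for Ncl and from −0.0384 to 0.0074 for Pes1, and that of riebeckite asbestos against untreated from −0.0774 to 0.0022 for Bop1. For tremolite asbestos over fragments the ranges were −0.0012 to 0.0387 (Ncl), −0.0053 to 0.0701 (Nop56), −6e-04 to 0.0887 (Dkc1), −0.0052 to 0.0306 (Npm1) and −0.0351 to 0.0035 (Pes1), and between asbestos forms −0.0862 to 0.0011 (Dkc1). Between fragments they were −0.055 to 0.0113 (Nop56), −0.0455 to 0.0301 (Polr1b), −0.0126 to 0.0757 (Npm1), −0.1106 to 0.0043 (Bop1), −0.0433 to 1e-04 (Fbl) and −0.0434 to 0.109 (Nob1).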

Other observations

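The deposited transcript values of some of the 60 genes varied far more between libraries of the same group than the gene values did. Of the 5 listed transcripts of Nop58, one had 1.71, 10.3 and 2.10 FPKM in the untreated libraries, while the gene value was 5.97 to 6.92. The leading transcript of Nolc1 had 20.6, 20.6 and 4.15 FPKM in the riebeckite asbestos libraries, where the gene value was 16.8, 17.9 and 15.1. Nol8, a 60S factor with 5 listed transcripts, varied at the gene level too, from 4.67 to 6.52 FPKM in untreated cells and from 3.62 to 5.74 with riebeckite asbestos. Rrp8, a methyltransferase that acts on ribosomal RNA and chromatin, had 3.61, 5.22 and 3.34 FPKM with riebeckite asbestos and 4.85, 5.03 and 3.26 with riebeckite fragments. In untreated cells the leading transcript held over 90% of the listed sum in 43 of the 60 genes and 34.3% in Nop56, the lowest share. The same leading transcript held 75.9% for Nol8 in untreated cells and 20.7% with riebeckite asbestos, and 68.7% for Wdr12 in untreated cells and 29.8% with riebeckite fragments.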
